A study of Mus musculus with 8 samples.

Results

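Both 4 h arrays of a bacterial exposure time course were examined, 2 of the 8 arrays of the series. One sets RAW264.7 cells exposed to Lactobacillus acidophilus MTCC-10307 against untreated cells, and the other does so for Bacillus clausii MTCC-8326. The species are written L. acidophilus and B. clausii below. They were chosen by the labelled time alone, and the arrays of 1, 2 and 6 h serve as the comparison. RAW264.7 is an established macrophage-like line from BALB/c mice, grown without antibiotics. Each bacterium was given at 100 bacteria per cell, and untreated cells of the same time point were the control. Equal amounts of RNA from 3 cultures went into each pool, so each bacterium has 1 array per time and the spread between cultures is not in these data. Treated RNA carried the red dye Cy5 and untreated RNA the green dye Cy3 on every array, with no exchange of dyes. Values below are log2 ratios of treated to untreated cells, so that 1 is a 2-fold higher and -1 a 2-fold lower level in treated cells. The sources used here do not say if the 2 arrays share their untreated RNA.

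Macrophages sense bacterial wall components through Toll-like receptors, which activate NF-kB and MAP kinases. Immediate early, chemokine and cytokine genes are transcribed first, and their products include inhibitors (IkB proteins, Tnfaip3, dual-specificity phosphatases) that shut the signal down again. Later changes in such cells commonly involve lipid handling, lysosomes, protein folding and stress pathways such as the ATF4 branch of the integrated stress response.

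On the 4 h arrays, well detected probes made up 47.2% (L. acidophilus) and 45.0% (B. clausii) of the 41174 in the untreated channel and 51.2% and 45.8% in the treated one, within the 42.2% to 47.4% and 39.6% to 51.5% seen over all 8 arrays. No spot was saturated, and replicate spots of a probe had a median SD of 0.110 and 0.0970. All 10 macrophage markers examined were measured. Lyz2, the gene of lysozyme, had treated and untreated signals of 44256 and 30857 on the L. acidophilus array. Markers of other lineages were measured in part. Kept were 1 of 6 neutrophil, 1 of 5 fibroblast, 1 of 5 epithelial, 3 of 5 dendritic and 2 of 4 mast genes. Of B-cell genes 4 of 5 and of T-cell genes 5 of 6 were kept, and the signals of all these were 74.2 to 367. Of these 17 genes, Lck (0.36), Cd3d (0.21), Krt8 (0.19) and Zbtb46 (0.18) were higher in treated cells at an adjusted p under 0.05 in the 4 h mean described next.

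At 4 h the exposed cells differed from untreated cells in many genes by small amounts. Of 14963 genes tested, 4110 (27.5%) passed an adjusted p under 0.05 for the mean of both bacteria, 2264 higher (15.1%) and 1846 lower (12.3%) in treated cells. Only 12 of the higher and 3 of the lower genes had a mean change of 2-fold or more. The test takes the bacteria as 2 readings of the 4 h response (limma, median standard error 0.0652). It estimates the spread from their disagreement over the 4 times, beyond their mean difference. P-values therefore measure the spread between arrays of pooled RNA, and a constant gap between the bacteria does not enter them. With no bacterium term in the fit, 2574 genes passed. A dye effect of a gene that is the same on all arrays stays in this mean, and the mean of the 1, 2 and 6 h arrays is given beside the leading genes for that reason. The split depends on centring. With each array centred on its median in place of loess, which moves the median over all genes from 0.015 to -0.090, 606 genes were higher and 3214 lower, so that 15.9% of the calls were higher against 55.1%. The number of calls also rests on having both 4 h arrays: 496 genes passed without that of L. acidophilus and 405 without that of B. clausii.

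The leading genes are given among called genes with a usable symbol, a value on all 8 arrays and the same sign on both 4 h arrays. No cytokine is among the 12 highest. Neat1, the long noncoding RNA on which nuclear paraspeckles assemble, had the highest mean of these. Its signal was 5151.5 in treated and 2194 in untreated cells with L. acidophilus, and with B. clausii it was 6319.6 and 2345.4, which gives ratios of 1.23 and 1.43 (mean 1.33 ± 0.0731 SE, adjusted p = 0.000106). It was as high at the other times (mean 1.22), and the difference of 4 h from them did not pass (0.11, adjusted p = 0.641). Slc43a2, a transporter of large neutral amino acids, stood at 1.30 and 1.24 (mean 1.27 ± 0.0655, other times 0.93). Bhlhe40, a basic helix-loop-helix repressor, stood at 1.33 and 1.06 (mean 1.20 ± 0.094, other times 0.66) and was back at 0.36 and 0.08 by 6 h. Lrrk1, a leucine-rich repeat kinase, stood at 1.26 and 1.35 (other times 1.05).

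Rgs2, which shortens G-protein signals, had ratios of 1.26 and 0.82 (mean 1.04 ± 0.079) after 0.08 and 0.08 at 1 h. Pdcd1, the inhibitory receptor PD-1, had ratios of 0.99 and 1.01. Cd180, a Toll-like receptor relative, stood at 0.92 and 1.13 with other times already at 0.69 to 1.12. Tnfrsf1b, the second receptor for TNF, had 1.05 and 0.90 (mean 0.98 ± 0.0658, adjusted p = 0.000186). Esyt3, a tether between endoplasmic reticulum and plasma membrane, stood at 1.09 and 1.01 and went on to 1.42 and 1.53 at 6 h. Fnip2, a partner of folliculin in nutrient sensing, had 1.17 and 0.83, and the small nucleolar RNA host gene Snhg20 had 0.92 and 1.16. Having the same sign with both bacteria was part of the rule that chose these genes. Without the L. acidophilus 4 h array the values of the 12 highest were 0.508 to 1.302. Without that of B. clausii they were 0.9785 to 1.614.

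Dpp7, a dipeptidyl peptidase, had the widest gap between the bacteria of the 12 highest. Its ratio was 1.54 with L. acidophilus and 0.58 with B. clausii (mean 1.06 ± 0.182, adjusted p = 0.00439). Without the L. acidophilus 4 h array its value was 0.508 (adjusted p = 0.0864), and with the scanner software's processed signals its adjusted p was 0.0546.

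**Figure D1:**
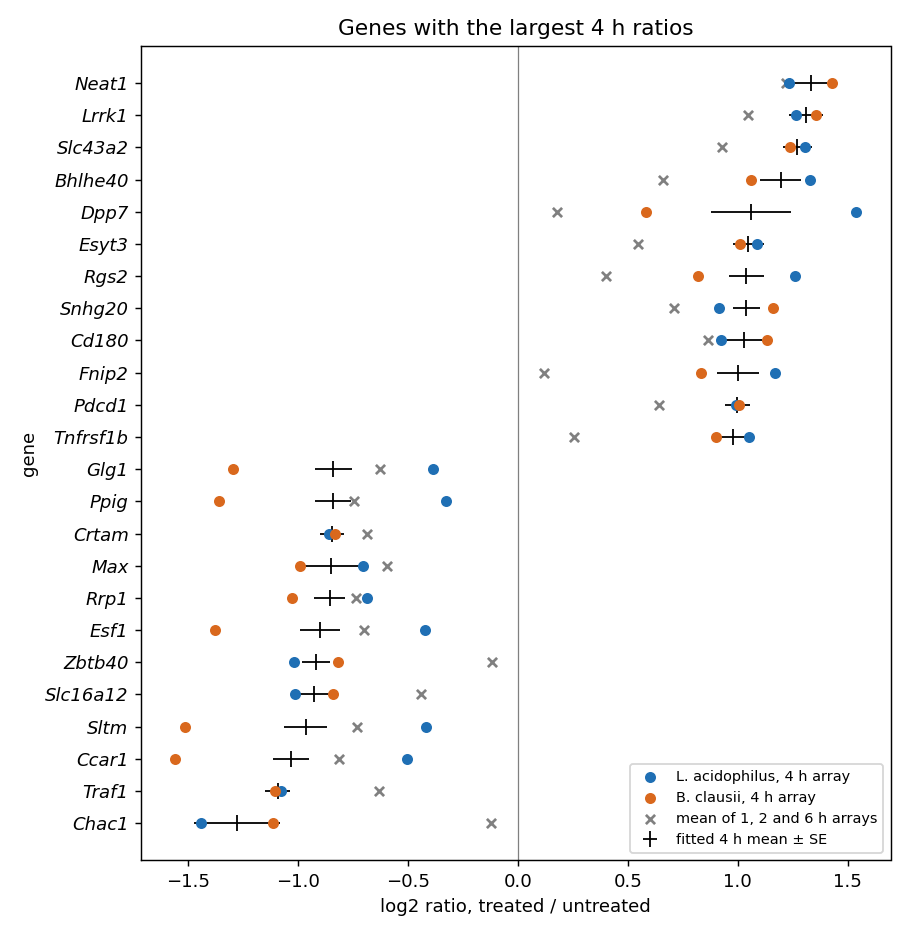
Log2 ratio of treated to untreated cells at 4 h for the 12 genes with the highest and the 12 with the lowest mean, among called genes with a usable symbol, a value on all 8 arrays and the same sign on both 4 h arrays. Coloured points are the L. acidophilus and B. clausii arrays, grey crosses the mean of the 6 arrays of the other times, and black bars the fitted mean ± SE. Neat1 (1.33) and Chac1 (-1.28) lead the ends, and for Neat1 and Lrrk1 the cross lies close to the 4 h points while for Fnip2 it lies near 0.

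By the same rule, the lowest mean was that of Chac1. This gene, whose enzyme cleaves glutathione and which is a target of ATF4, had signals of 425.35 treated and 1155.4 untreated with L. acidophilus, and with B. clausii of 443.21 and 958.06, ratios of -1.44 and -1.11 (mean -1.28 ± 0.194, adjusted p = 0.00268). Without the L. acidophilus 4 h array its value was -0.742 (adjusted p = 0.0724), and with the processed signals its adjusted p was 0.0623. Traf1, an adaptor of TNF receptors, fell to -1.08 and -1.11 (mean -1.09 ± 0.0558, adjusted p = 0.000106) from -0.40 and -0.42 at 1 h, and stayed at -0.98 and -0.99 at 6 h. The transporter gene Slc16a12 had -1.01 and -0.84, the zinc finger gene Zbtb40 had -1.02 and -0.82, and Crtam, an adhesion receptor of lymphocytes, had -0.86 and -0.83. The bacteria gave similar ratios for these genes. Max, the partner of Myc, stood at -0.71 and -0.99, and was lost without either 4 h array (adjusted p = 0.0786 without L. acidophilus, 0.058 without B. clausii).

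In 5 of the 12 lowest genes the B. clausii ratio was much the lower. Ccar1, a transcriptional coactivator linked to apoptosis, stood at -0.51 with L. acidophilus and -1.56 with B. clausii. Sltm, an RNA-binding modulator of transcription, stood at -0.42 and -1.51, the nuclear cyclophilin gene Ppig at -0.33 and -1.36, the nucleolar gene Esf1 at -0.42 and -1.38 and the Golgi glycoprotein gene Glg1 at -0.38 and -1.29. For Ccar1 the B. clausii ratio was the lower at the other times too. It was -0.93, -1.14 and -1.42 at 1, 2 and 6 h against -0.19, -0.30 and -0.90 with L. acidophilus, a narrower gap at 6 h than at 4 h. Slide, scan and annotation version go with the bacterium, and these cannot be told apart. Rrp1, which acts in ribosomal RNA processing, had -0.68 and -1.03.

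Several of these genes have more than 1 probe, and the probes do not always give 1 answer. The brightest probe stood for each gene. For Lrrk1 the other 2 probes had means of -0.13 and 0.05 against 1.31, for Slc43a2 the other probe had -0.24 against 1.27, for Dpp7 -0.04 against 1.06, for Cd180 0.09 against 1.03 and for Tnfrsf1b 0.09 against 0.98. Averaged over probes, Lrrk1 stood at 0.41 and Slc43a2 at 0.52, both still past the threshold. For Ccar1 the 3 probes gave -1.03, -0.98 and 0.35, and for Sltm -0.97, -0.67 and 0.03. The ratio given for such a gene is that of its brightest probe. Brightness (mean log2 signal) of the other probes was 6.73 and 6.44 for Lrrk1, 6.62 for Slc43a2, 6.92 for Dpp7 and 6.98 for Cd180. Their chosen probes had 8.86, 7.96, 10.9 and 8.13. The background correction used pulls ratios of dim probes towards 0. The chosen and other probes of Tnfrsf1b were of like brightness (7.47 and 7.35). Why the probes differ was not tested. On assembly mm9, the build named in the file headers, the chosen Tnfrsf1b probe lies at chr4:144804304-144804363 (minus strand) and the other one at chr4:144812866-144813439, where it spans 574 bases. The chosen Slc43a2 probe lies at chr11:75348053-75348112 (plus strand) and the other one at chr11:75387946-75388005. Which exon or untranslated region each probe lies in was not analysed here.

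Sequences are shown where the identity of the probe decides what was measured: the single Neat1 probe (chr19:5842564-5842623, minus strand), the second Ccar1 probe (chr10:62227259-62228050, minus strand, spanning 792 bases, ratios -0.64 and -1.32), the second Tnfrsf1b probe (ratios 0.16 and 0.02) and the second probe of Klf2 (chr8:74843761-74843820, plus strand), a gene described further on.
Neat1: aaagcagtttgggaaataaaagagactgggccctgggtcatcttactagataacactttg
Ccar1: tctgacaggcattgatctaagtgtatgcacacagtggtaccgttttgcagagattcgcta
Tnfrsf1b: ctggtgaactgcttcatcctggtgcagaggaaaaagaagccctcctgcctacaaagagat
Klf2: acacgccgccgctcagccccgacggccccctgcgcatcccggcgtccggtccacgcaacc

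**Figure D2:**
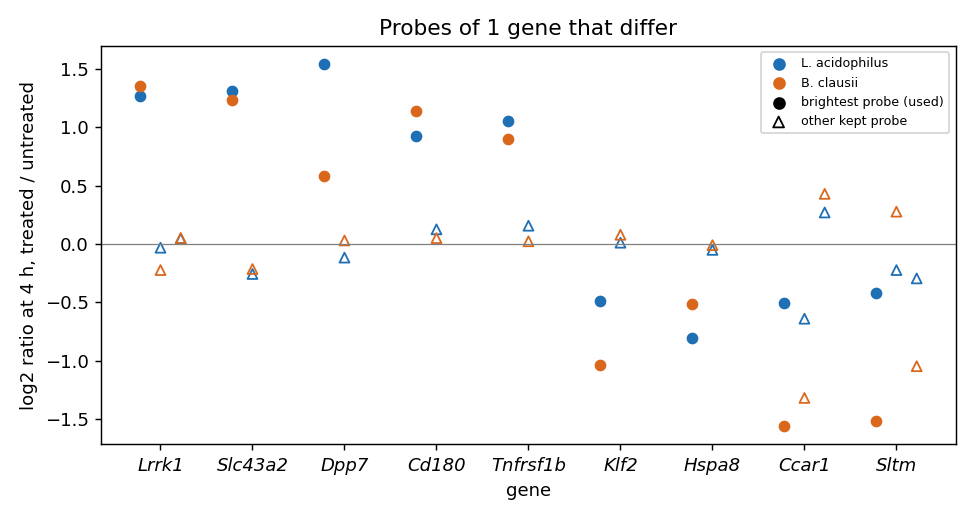
Log2 ratio of treated to untreated cells at 4 h for each kept probe of 9 genes, with 1 point per bacterium. Filled circles are the brightest probe, which was used for the gene, and open triangles the others. Circles of Lrrk1, Slc43a2, Cd180 and Tnfrsf1b lie at 0.90 or higher and their triangles near 0.

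A second comparison set 4 h against the mean of the other times, in which a dye effect that is constant over arrays cancels. The position on the slide does not cancel, since it goes with the time. By this measure 209 genes (1.4%) passed, 118 with a higher ratio at 4 h (0.789%) and 91 with a lower one (0.608%). The median standard error was 0.0754. No gene with a higher ratio and 6 with a lower one differed by 2-fold or more. The count depended on the signals used, while with no background correction 166 genes passed. With the scanner software's processed signals 0 genes passed in limma (smallest adjusted p = 0.132, 2086 genes at an unadjusted p under 0.05 against 1995), although all 209 kept their sign there. It also rests on both arrays, with 8 calls, 2 of them among the 209, without the L. acidophilus 4 h array and 10, 4 of them among the 209, without that of B. clausii. With median centring the calls were 137 higher and 26 lower, 84.0% higher against 56.5%.

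Among the genes with the largest excess at 4 h were a clock receptor, zinc finger genes, a cholesterol pump and a TNF receptor. Nr1d2, a nuclear receptor of the circadian clock, had ratios of -0.38 and -0.56 at 1 h, -0.30 and -0.47 at 2 h, 0.79 and 0.49 at 4 h and 0.12 and -0.10 at 6 h, with L. acidophilus first in each pair. The 4 h ratio exceeded the mean of the others by 0.92 ± 0.0653 (adjusted p = 0.0018), and passed without either 4 h array (adjusted p = 0.0464 and 0.0305). Fnip2 followed at 0.88 ± 0.11 (adjusted p = 0.0116), with ratios between -0.10 and 0.41 at the other times. Phf13, a reader of histone methylation, went from about -0.7 at 1 h to 0.42 and 0.53 (difference 0.83). Zfp958, a zinc finger gene, had 0.83 and 0.85 at 4 h against -0.12 and -0.07 at 1 h (difference 0.71).

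For Enc1, an actin-binding kelch protein, the difference of 0.74 ± 0.0659 came from low ratios elsewhere. It stood at -0.82 and -0.92 at 1 h, -0.84 and -0.98 at 2 h and 0.11 and 0.12 at 4 h, and its 4 h mean did not pass (adjusted p = 0.173). Abca1, the pump that exports cholesterol from macrophages, went from -0.53 and -0.28 at 1 h to 0.24 and 0.66 at 4 h and -0.18 and -0.07 at 6 h (difference 0.69 ± 0.0769, adjusted p = 0.00824). Tnfrsf1b likewise peaked at 4 h, at 0.09 and 0.04 by 6 h (difference 0.72 ± 0.076, adjusted p = 0.00822). Zxdc, a zinc finger coactivator, had 0.51 and 0.11 at 4 h and negative ratios at every other time (difference 0.67). These values are those of the brightest probe. In the mean over probes the differences were smaller, at 0.37 for Tnfrsf1b, 0.40 for Enc1, 0.38 for Zxdc and 0.54 for Phf13. They still passed in limma (adjusted p = 0.0454, 0.0347, 0.0453 and 0.0184).

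Of the 8 genes that were lowest at 4 h relative to the other times, Cxcl2, Klf2, Ccl4, Trib1, Maff and Adm had ratios of 0.74 or higher at 1 h with both bacteria. Ccl4, a chemokine for monocytes and lymphocytes, had ratios of 1.26 and 1.30 at 1 h, 0.88 and 1.03 at 2 h, -0.84 and -0.78 at 4 h and -0.64 and -0.52 at 6 h. Its signal at 4 h was 2863 in treated and 5107.8 in untreated cells with L. acidophilus, and with B. clausii it was 2644.2 and 4542.2. Both the 4 h mean (-0.81 ± 0.0557, adjusted p = 0.000209) and the difference from the other times (-1.36 ± 0.0644, adjusted p = 0.000117) passed. This gene had the smallest adjusted p of the difference, and it passed without either 4 h array (0.00393 and 0.0157).

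Cxcl2, a neutrophil chemokine, went from 2.06 and 2.35 at 1 h to -0.06 and -0.79 at 4 h (difference -1.69 ± 0.212, adjusted p = 0.0118), while its 4 h mean of -0.42 did not pass (adjusted p = 0.119). Klf2, a zinc finger factor that restrains inflammatory activation, had 1.29 and 1.41 at 1 h, -0.48 and -1.03 at 4 h and 0.69 and 0.21 at 6 h (difference -1.50 ± 0.211). The second Klf2 probe printed above showed 0.01 and 0.08 at 4 h, and the mean over both probes gave a difference of -0.77. Trib1, a pseudokinase that steers degradation of C/EBP factors, had 1.05 and 1.24 at 1 h and -0.62 and -0.61 at 4 h (difference -1.12 ± 0.0993, adjusted p = 0.00434). Maff, a small Maf factor, had 0.74 and 0.79 at 1 h and -0.60 and -0.72 at 4 h (difference -0.88 ± 0.0737). In Ccl4, Trib1 and Maff all 4 ratios of 1 and 2 h were above 0 and both of 4 h below 0.

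Adm, the gene of the vasoactive peptide adrenomedullin, remained above 0 at 4 h, with 0.21 and 0.52 after 1.97 and 2.09 at 1 h (difference -0.83). Banp, a DNA-binding protein of the nuclear matrix, had -0.88 and -0.78 at 4 h and positive ratios at 1 and 2 h (difference -1.07). The difference of Chac1 was -1.15 ± 0.225 (adjusted p = 0.0482, and 0.0691 in the fit of means over probes). Of the 8 highest genes of this comparison, 1 (Nr1d2) passed without the L. acidophilus 4 h array, with adjusted p from 0.0464 to 0.195, and the same 1 without that of B. clausii, with 0.0305 to 0.169. Among the 8 lowest, Ccl4 passed without the former (adjusted p up to 0.506), and Ccl4 and Chac1 without the latter (up to 0.26).

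**Figure D3:**
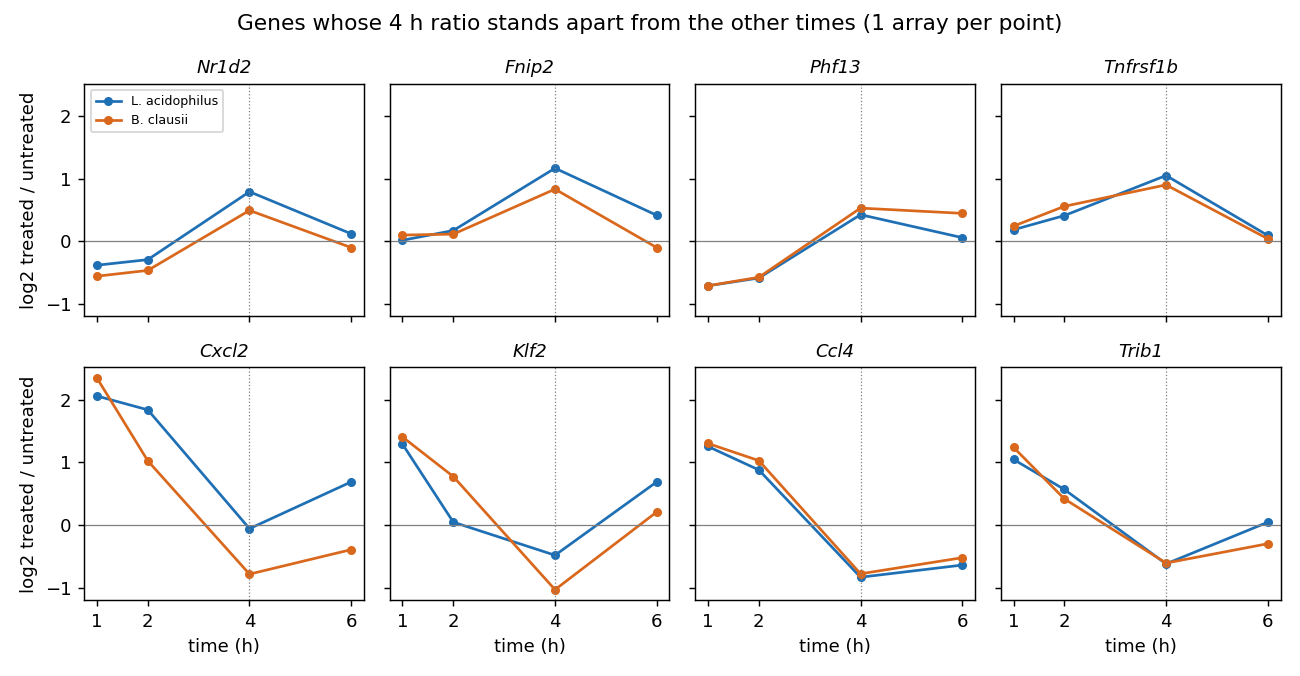
Log2 ratio of treated to untreated cells against time (1, 2, 4 and 6 h) for 8 genes, 1 array per point and 1 line per bacterium. Nr1d2, Fnip2, Phf13 and Tnfrsf1b have higher 4 h than 1 h ratios with both bacteria, and Cxcl2, Klf2, Ccl4 and Trib1 go from 1.05 or more at 1 h to below 0 at 4 h.

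Of 13 measured circadian clock genes, Nr1d1, Nr1d2, Dbp and Tef had higher ratios at 4 h than at the other times. In the clock, Arntl and Clock drive transcription through E-boxes, Per and Cry proteins inhibit them, Nr1d1 and Nr1d2 repress Arntl, and the PAR-domain factors Dbp, Tef and Hlf act as outputs. The list has 17 genes, and of the 13 measured 4 passed with a higher ratio at 4 h and none with a lower one, beside the 0.789% and 0.608% of all genes. Dbp had -0.04 and -0.05 at 1 h, 0.12 and 0.11 at 2 h, 0.77 and 0.83 at 4 h and 0.65 and 0.43 at 6 h (difference 0.60 ± 0.0745, adjusted p = 0.0116). Tef had 0.00 and 0.04 at 1 h, 0.62 and 0.53 at 4 h and 0.21 and 0.14 at 6 h (difference 0.52, adjusted p = 0.0184). Nr1d1 had 0.11 and 0.01 at 1 h, 0.68 and 0.82 at 4 h and -0.41 and 0.09 at 6 h (difference 0.58, adjusted p = 0.0347).

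In the 4 h mean, 5 of the 13 clock genes were higher and 1 was lower, and their median was 0.27 against 0.015 over all genes. Nr1d1 (0.75 ± 0.0896), Nr1d2 (0.64 ± 0.0565), Dbp (0.80 ± 0.0645), Tef (0.58 ± 0.065) and Bhlhe40 were the higher ones. Cry1, an inhibitor in the loop, was the lower one at -0.46 and -0.38 (adjusted p = 0.00183, but 0.0738 and 0.0549 without the L. acidophilus or the B. clausii 4 h array). The drivers Arntl (0.27 and 0.33) and Clock (0.13 and 0.00) and the inhibitors Per1 (-0.04 and 0.25), Per2 (0.19 and 0.14) and Cry2 (0.08 and 0.46) did not pass. The output gene Hlf and Nfil3, which were measured too, did not pass either. The differences of Dbp, Tef and Nr1d1 from the other times did not pass when either 4 h array was left out (adjusted p from 0.12 to 0.415), and all 4 clock calls had adjusted p of 0.14 to 0.177 with the processed signals. In the mean over its probes the difference of Nr1d1 was 0.22 (adjusted p = 0.231). The 4 h means of Nr1d1, Nr1d2, Dbp and Tef passed in all of these settings.

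**Figure D4:**
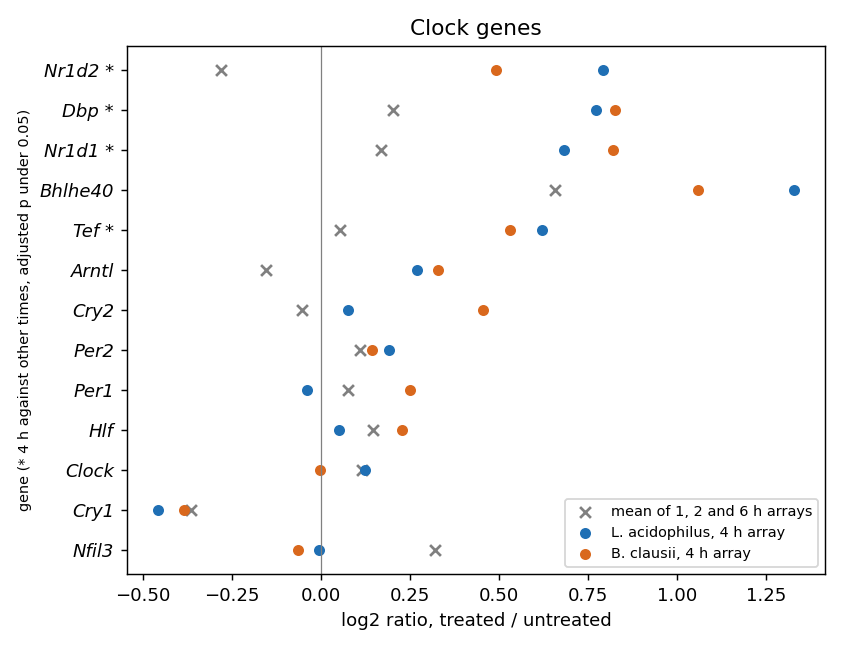
Log2 ratio of treated to untreated cells for the 13 measured clock genes, ordered by the difference of 4 h from the other times. Coloured points are the L. acidophilus and B. clausii 4 h arrays and grey crosses the mean of the 6 arrays of the other times. Asterisks mark Nr1d2, Dbp, Nr1d1 and Tef, whose 4 h ratio exceeded that of the other times at an adjusted p under 0.05.

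The E-box searched was CACGTG, on both strands, in RefSeq promoters of assembly GRCm38.p6 (250 bases before to 50 after the start). It was in 11.1% of the promoters of 10459 tested genes, in 9.0% of those above the other times at 4 h and in 14.1% of those below. Of 11 clock genes with a promoter 3 held it (27.3%), namely Per1, Cry1 and Tef. It was not in the windows of Nr1d1, Nr1d2 and Dbp. Tef had 2 promoters, and a second Tef site (chr15:81811236-81811321, plus strand) is not shown. Shown are a Tef site (chr15:81802506-81802591, plus strand) and the Cry1 site (chr10:85185069-85185154, minus strand), a gene that was higher and a gene that was lower. Each has 40 bases on both sides and the motif in capitals.
Tef: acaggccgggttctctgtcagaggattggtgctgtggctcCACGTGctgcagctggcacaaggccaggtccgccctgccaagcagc
Cry1: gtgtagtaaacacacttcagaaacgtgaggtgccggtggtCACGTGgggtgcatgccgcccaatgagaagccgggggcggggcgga

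Counts in the inflammatory lists are small and are to be read beside the 15.1% higher and 12.3% lower of all genes. Of 18 chemokine genes 11 were measured, 4 higher and 2 lower in the 4 h mean, and 3 lower at 4 h than at the other times. Ccl2, the monocyte chemokine, had signals of 23354 against 10217 with L. acidophilus and 13201 against 9378.3 with B. clausii, ratios of 1.19 and 0.49. At 6 h these were 1.27 and -0.11, a wider gap than at 1 h (1.37 and 1.48). Its mean of 0.84 ± 0.191 passed (adjusted p = 0.0132) but not without either 4 h array (0.189 and 0.135) or with the processed signals (0.0987). Cxcl10, a lymphocyte chemokine induced by interferon, had 0.42 and 0.33, and Cxcl14 had 0.36 and 0.42. Both were lost without the L. acidophilus array (adjusted p = 0.108 and 0.0758) and without the B. clausii array (0.068 and 0.0922), and Cxcl14 with median centring too (0.259). Ccl3, close kin of Ccl4, had -0.23 and -0.55 (difference from the other times -0.72, adjusted p = 0.0283), with adjusted p of 0.151 and 0.317 for its mean and 0.235 and 0.386 for the difference without one or the other array, and 0.295 for its mean with the processed signals. Ccl5 (0.02 and 0.06), Ccl6 (0.16 and 0.05), Ccl7 (0.84 and 0.31) and Cxcl16 (-0.06 and 0.01) did not pass.

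Among cytokines and inflammatory enzymes, 12 of 23 were measured, 2 higher and 2 lower, shares near those of all genes. Tnf had 0.49 and 0.56 at 4 h after -0.25 and -0.26 at 2 h (mean 0.53 ± 0.0768, adjusted p = 0.00223, and 0.0865 without the L. acidophilus 4 h array). Csf1, the macrophage growth factor, had 0.36 and 0.41 at 4 h and between -0.08 and 0.06 at every other time (difference 0.41 ± 0.0639, adjusted p = 0.0253). It did not pass without the L. acidophilus (0.33) or the B. clausii array (0.354), with the processed signals (0.14) or with median centring (0.0927), and its 4 h mean was lost without either array too (0.07 and 0.0782). Ptgs2, the inducible cyclooxygenase, was lower at -0.36 and -0.63, and Il1rn, the interleukin-1 receptor antagonist, at -0.39 and -0.28. Without the L. acidophilus array their adjusted p was 0.0625 and 0.31, and without that of B. clausii 0.0869 and 0.0682, and Il1rn was lost with the processed signals (0.0938). Il10 (-0.14 and -0.07), Acod1 (0.21 and 0.06) and Osm (0.19 and 0.11) did not pass, and Il1b, Il6 and Nos2 were not measured after the filter on dim probes.

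Of the inhibitors of NF-kB and their partners, 16 of 19 were measured, with 1 higher and 2 lower at 4 h. Tnfaip3, the ubiquitin-editing inhibitor A20, had 0.37 and 0.46 (adjusted p = 0.00259, but 0.0733 and 0.0843 without the L. acidophilus and the B. clausii array and 0.158 with median centring). Nfkbiz, an inducible IkB protein, was back at -0.02 and -0.02 after 0.60 and 0.70 at 2 h (difference -0.46, adjusted p = 0.0184). Nfkbia, the main IkB gene, had -0.02 and -0.18 and did not pass. Of the TNF superfamily list 15 of 19 were measured, 6 were higher and none lower, and 2 were higher at 4 h than at the other times. The list median was 0.18, and 0.16 over the other times. Ltb, the gene of lymphotoxin beta, had 0.73 and 0.87 (mean 0.80 ± 0.0894, adjusted p = 0.000809), which passed without either 4 h array. Tnfrsf12a, the receptor for TWEAK, had 0.25 and 0.37 after -0.25 and -0.19 at 1 h (difference 0.50, adjusted p = 0.0119). The mean was lost with median centring (0.424), with the processed signals (0.0603) and without either array (0.101 and 0.143), as were the differences of Tnfrsf12a (0.186 and 0.241) and Nfkbiz (0.22 and 0.332). Nfkbiz was lost with median centring as well (0.207). The receptor genes Cd40 (0.29 and 0.42) and Tnfrsf1a (0.27 and 0.31) were higher too, the latter after 0.36 and 0.40 at 1 h. Neither passed without the L. acidophilus array (0.111 and 0.112), without the B. clausii array (0.109 and 0.159) or with median centring (0.0704 and 0.493).

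Genes of early signalling and its brakes were divided as well, beside the 15.1% higher and 12.3% lower of all genes. Of 24 immediate early and AP-1 genes 21 were measured, 5 higher and 6 lower at 4 h, 1 higher and 2 lower than at the other times. Nr4a1, an orphan nuclear receptor, had 0.49 and 0.72 (0.0843 as its adjusted p without the B. clausii array). Btg1, an antiproliferative gene (-0.68 and -0.70), and Arc (-0.70 and -0.60) were lower and had been so at 1 and 2 h. Of 14 MAP kinase phosphatases and Sprouty genes 12 were measured, 3 higher and 2 lower. Dusp1, which dephosphorylates p38 and JNK, was at -0.28 and -0.03 at 4 h after 0.51 and 0.59 at 1 h (difference -0.50, adjusted p = 0.0184). Dusp6, which acts on ERK, had -0.39 and -0.54 with 0.36 and 0.06 at 6 h (difference -0.68, adjusted p = 0.0209). The ERK inhibitors Spry1 (0.75 and 0.36) and Spry2 (0.78 and 0.23) were higher, more so with L. acidophilus, and were lost without its array (adjusted p = 0.0549 and 0.154). Without the L. acidophilus or the B. clausii array the differences of Dusp1 (0.317 and 0.234) and Dusp6 (0.187 and 0.332) did not pass, nor did the 4 h mean of Dusp6 (0.0761 and 0.164), and that of Dusp1 was also lost with median centring (0.138).

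Of 11 Kruppel-like factor genes 9 were measured, 2 higher and 2 lower at 4 h (all genes 15.1% and 12.3%). Beside Klf2, Klf4 was lower (-0.14 and -0.84), mainly with B. clausii, and was lost without that array (adjusted p = 0.166). Klf11 (0.40 and 0.71) and Klf9 (0.51 and 0.36) were higher, and their ratios also exceeded those of the other times (0.55, adjusted p = 0.0283, and 0.36, adjusted p = 0.0416). These 2 differences were lost without the L. acidophilus (0.0888 and 0.417) or the B. clausii array (0.45 and 0.47) and in the mean over probes (0.136 and 0.231), and that of Klf9 with median centring (0.0895). The means of both were lost without the B. clausii array (0.0887 and 0.0663), and that of Klf9 without the L. acidophilus array (0.0543). The 4 h mean of Klf2 passed at an adjusted p of 0.0168, but was 0.0551 without the L. acidophilus and 0.361 without the B. clausii array and 0.118 with the processed signals.

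Calls in the stress lists went both ways at 4 h, beside the 15.1% higher and 12.3% lower of all genes. In the list of ATF4 targets of the integrated stress response, 23 of 26 genes were measured, 2 were higher and 8 lower. The median at 4 h was -0.16 (-0.11 over the other times). With the processed signals 2 were higher and 2 lower (median -0.11), with the series matrix the same, and with an offset of 0 there were 2 and 5. At the same time 7 of 25 measured genes of the list of chaperones of the endoplasmic reticulum were higher and 1 was lower, with a median of 0.16. Ddit3, the gene of the factor CHOP, had 0.51 and 0.63 at 1 h, 0.44 and 0.58 at 2 h, -0.63 and -0.46 at 4 h and -0.74 and -0.65 at 6 h. Its mean (-0.54 ± 0.0551, adjusted p = 0.000628) and its difference from the other times (-0.67 ± 0.0636, adjusted p = 0.00506) passed. Herpud1, a part of the degradation machinery of that compartment, had 0.99 and 1.13 at 1 h, -0.41 and -0.24 at 4 h and -1.18 and -1.19 at 6 h (difference -0.57, adjusted p = 0.0105). Both genes were above 0 at 1 and 2 h and below 0 at 4 and 6 h with both bacteria. Without the L. acidophilus or the B. clausii 4 h array the differences did not pass for Ddit3 (0.103 and 0.0844) or Herpud1 (0.194 and 0.153), and neither did the mean of Herpud1 (0.16 and 0.0843). The difference of Herpud1 was also lost with median centring (0.109).

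Ddit4, an inhibitor of mTORC1 that ATF4 and hypoxia both induce, was still higher at 0.58 and 1.21 (mean 0.90 ± 0.0806, adjusted p = 0.000411) and reached -0.20 and 0.05 at 6 h. Sesn2, another brake on mTORC1, had 0.48 and 0.41, but was lost without either 4 h array (0.1 and 0.0557), with median centring (0.0872) and in the mean over probes (0.083). Atf4 itself (-0.23 and -0.19), Asns, which makes asparagine (-0.10 and -0.21), and Trib3 (0.05 and 0.05) did not pass.

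Among the chaperones, Hspa5, the gene of BiP, had 0.86 and 0.73 at 4 h (mean 0.79 ± 0.0901, adjusted p = 0.000828) after 0.63 and 1.04 at 1 h, and 0.00 and 0.09 at 6 h. Its partner Hsp90b1 had 0.62 and 0.67 and the disulfide isomerase gene Pdia6 0.62 and 0.72. P4hb had 0.39 and 0.71, and Manf, a secreted stress factor of this compartment, 0.33 and 0.61. The second probe of Hsp90b1 had 0.34 and -0.23, and the other probes of Pdia6 had means of 0.23, 0.01 and 0.20. Averaged over probes, Hsp90b1 stood at 0.35 and Pdia6 at 0.28, both still past the threshold (adjusted p = 0.00381 and 0.00574). Hspa5 and Pdia6 passed without either 4 h array. P4hb (0.0511) and Manf (0.113) did not pass without the B. clausii array, and Hsp90b1 had an adjusted p of 0.0522 with the processed signals. No gene of this list passed in the comparison with the other times, over which the list median was 0.16 as well.

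The C/EBP-ATF composite element was searched as TGATGNAA on both strands. It was in 3.0% of all promoters, in 3.65% of those of genes higher in the 4 h mean and in 2.38% of those lower. Of genes above the other times at 4 h 3.0% held it, and of genes below them 4 of 64 (6.25%). In the ATF4 list it was in 5 of 21 promoters (23.8%), those of Chac1, Trib3, Asns, Nupr1 and Herpud1. The sites of Chac1 (chr2:119351009-119351096, plus strand) and Herpud1 (chr8:94386277-94386364, plus strand) are shown because both genes were lower at 4 h. Capitals mark the match, which in both reads on the opposite strand.
Chac1: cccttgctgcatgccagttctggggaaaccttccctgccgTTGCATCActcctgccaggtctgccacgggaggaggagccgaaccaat
Herpud1: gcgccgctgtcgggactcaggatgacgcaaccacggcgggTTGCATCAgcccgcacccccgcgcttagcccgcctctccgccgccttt

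Metabolic lists are given beside the 15.1% higher and 12.3% lower of all genes. Of 24 cholesterol synthesis genes, all measured, 1 was higher and 4 were lower (median -0.01). Of 14 measured genes of arginine and polyamine metabolism likewise 1 was higher and 4 were lower (median -0.19, and the same -0.19 over the other times). In neither list did a gene pass against the other times. Of 30 hypoxia and glycolysis genes, all measured, 11 were higher and 1 lower. Their median was 0.09, and it turned to -0.03 with median centring, where 7 were higher and 4 lower. With the processed signals 5 were higher and 2 lower. Slc2a1, the glucose transporter GLUT1, had 1.29 and 1.30 at 1 h, 0.68 and 0.54 at 4 h and -0.32 and 0.17 at 6 h (mean 0.61 ± 0.096, adjusted p = 0.00294, and 0.115 without the L. acidophilus 4 h array). Ankrd37, a hypoxia-induced ankyrin repeat gene, had 0.40 and 1.11 (adjusted p = 0.00359, but 0.0631 and 0.102 without the L. acidophilus and the B. clausii array). Hk2, the inducible hexokinase, was at 0.02 and -0.12 after 1.02 and 0.79 at 1 h (difference -0.69, adjusted p = 0.0191, but 0.182 and 0.317 without the one or the other and 0.056 with median centring). Both of these genes had ratios nearer to 0 at 4 h than at 1 h.

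All 14 genes of the list of LXR targets were measured, 5 higher and 1 lower (all genes 15.1% and 12.3%). Their median was 0.13, and the same 0.13 over the other times. LXR is the nuclear receptor that senses oxysterols and drives lipid efflux. Abca1 (mean 0.45 ± 0.0666, adjusted p = 0.00246, 0.106 without the B. clausii array) was the list's 1 call against the other times, which did not pass without the L. acidophilus (0.0831) or B. clausii array (0.169). Apoe (0.34 and 0.55), Lpl, the gene of lipoprotein lipase (0.37 and 0.58), and Mylip, which marks the LDL receptor for degradation (0.36 and 0.41), were higher. At 1 h they had stood at 0.49 and 0.51, 0.45 and 0.63, and 0.26 and 0.26. Abcg1, a second sterol pump, was lower at -0.32 and -0.12. The calls of Apoe (0.0848 and 0.144), Mylip (0.0868 and 0.0748) and Abcg1 (0.246 and 0.293) were lost without the L. acidophilus and without the B. clausii array, and that of Lpl without the latter (0.0669). With median centring Apoe (0.0953) and Mylip (0.254) were lost, and with the processed signals Abcg1 (0.137).

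Of 40 lysosomal genes 39 were measured, 12 higher and 5 lower (all genes 15.1% and 12.3%). Their median was 0.14, and 0.00 with median centring. Over the other times the median was 0.08, and no gene of the list passed against them. Hexa, a subunit of a lysosomal enzyme that breaks down gangliosides, was higher, with 0.46 and 0.68. Ctsb, the protease cathepsin B, had 0.53 and 0.67, but its second probe had -0.03 and the mean over probes did not pass (0.0721). Lipa, the acid lipase, was lower at -0.44 and -0.82 (mean -0.63). Hexa and Lipa passed without either 4 h array.

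Of 24 Fc, phagocytic and scavenger receptor genes 19 were measured, 9 were higher and none lower (all genes 15.1% and 12.3%, list median 0.17). The list median over the other times was 0.12, and no gene of the list passed against them. With median centring 2 were higher and 1 lower, at a median of 0.12. The Fc receptor gene Fcgr4 had 0.31 and 0.67 and the integrin chain Itgb2 0.32 and 0.67. The scavenger receptor gene Msr1 had 0.29 and 0.54, but its other probes had means of -0.05 and 0.11. Its mean over probes did not pass (adjusted p = 0.0514). Cd300lf, an inhibitory receptor, had 0.58 and 0.49, with a mean of 0.11 for its second probe. The first 3 were lost with median centring (0.076, 0.0542 and 0.159), without the L. acidophilus array (0.0622, 0.0628 and 0.0657) and without the B. clausii array (0.0722, 0.0533 and 0.0731). Cd300lf was lost without the former (0.0561).

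Of the matrix protease and urokinase list 15 of 22 were measured, 3 higher and 1 lower (all genes 15.1% and 12.3%). Against the other times 2 were lower. Plau, the gene of urokinase, had 1.13 and 1.62 at 1 h and 0.70 and 0.84 at 4 h (mean 0.77 ± 0.0793, adjusted p = 0.000651). The second Plau probe had 0.22 and 0.04 at 4 h, and the mean over its probes was 0.45 (adjusted p = 0.00238). Its receptor gene Plaur was at -0.17 and -0.20 after 0.47 and 0.63 at 1 h (difference -0.44, adjusted p = 0.0244, but 0.195 and 0.401 without the L. acidophilus and the B. clausii array and 0.281 with median centring). Both Plau ratios were above 0 at 4 h and both Plaur ratios below.

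Of 18 genes of TGF-beta signalling 17 were measured, 3 higher and 1 lower (all genes 15.1% and 12.3%). Against the other times 3 were higher. The median was 0.09, and -0.07 with median centring. Tgfbr1, the type I receptor, had -0.05 and -0.03 at 1 h, 0.13 and 0.23 at 2 h, 0.70 and 0.87 at 4 h and 0.91 and 0.85 at 6 h (mean 0.79 ± 0.0615, adjusted p = 0.000285). The inhibitory Smad6 had 0.27 and 0.50 at 4 h after -0.51 and -0.27 at 1 h (difference 0.62, adjusted p = 0.011), and Id2, an inhibitor of basic helix-loop-helix factors, had 0.65 and 0.51 (mean 0.58, adjusted p = 0.000828). The means of Tgfbr1 and Id2 passed without either 4 h array, and that of Smad6 did not (0.0652 and 0.143), nor with median centring (0.237). The differences from the other times did not pass without the L. acidophilus or the B. clausii array for Tgfbr1 (0.195 and 0.418), Smad6 (0.118 and 0.235) or Id2 (0.453 and 0.26), and that of Id2 was lost in the mean over probes (0.118).

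Housekeeping machinery showed the widest list in the higher direction. Of 37 cytosolic ribosomal protein genes, all measured, 23 were higher and 1 lower, with a median of 0.34 and the same 0.34 over the other times. None differed between 4 h and the other times. Rplp1 had 0.72 and 0.73 and Rps19 had 0.64 and 0.60 (its second probe -0.11 and 0.04). With the processed signals the median was 0.05 with 5 higher and 2 lower, and in the mean over probes 0.20 with 17 and 1. These genes are among the brightest on the array, and the part of signal level or dye in their ratios was not tested.

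Genes of RNA and protein turnover were more often lower in the 4 h mean. The median of the proteasome list was -0.08 at 4 h and -0.10 over the other times. That of the splicing list was -0.04 and 0.04. Against the other times no proteasome gene passed, and 2 splicing genes did, both lower at 4 h. Of 41 splicing and hnRNP genes, all measured, 4 were higher and 11 lower (median -0.04), among them Ppig described above and Snrpb, a core snRNP protein, at -0.73 and -0.50 (adjusted p = 0.0706 without the L. acidophilus array). Of 31 proteasome genes 4 were higher and 8 lower, and Psmb7, a catalytic subunit, had -0.62 and -0.57. It was lost without the L. acidophilus array (0.0597) and with the processed signals (0.0721). Counts in further lists were 3 higher and 6 lower of 20 measured NRF2 genes, 1 and 5 of 21 autophagy genes, 3 and 5 of 19 heat-shock genes, 4 and 1 of 18 interferon-stimulated genes, 4 and 0 of 9 MHC class II genes and 6 and 1 of 20 amino-acid transporters. These counts are to be read beside the 15.1% and 12.3% of all genes. In none of these further lists did a gene pass against the other times. Medians at 4 h and over the other times were -0.14 and -0.10 (NRF2), -0.16 and -0.17 (autophagy) and -0.11 and -0.07 (heat shock). They were 0.04 and 0.04 (interferon), 0.19 and 0.15 (MHC class II) and 0.10 and 0.11 (amino-acid transporters).

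**Figure D5:**
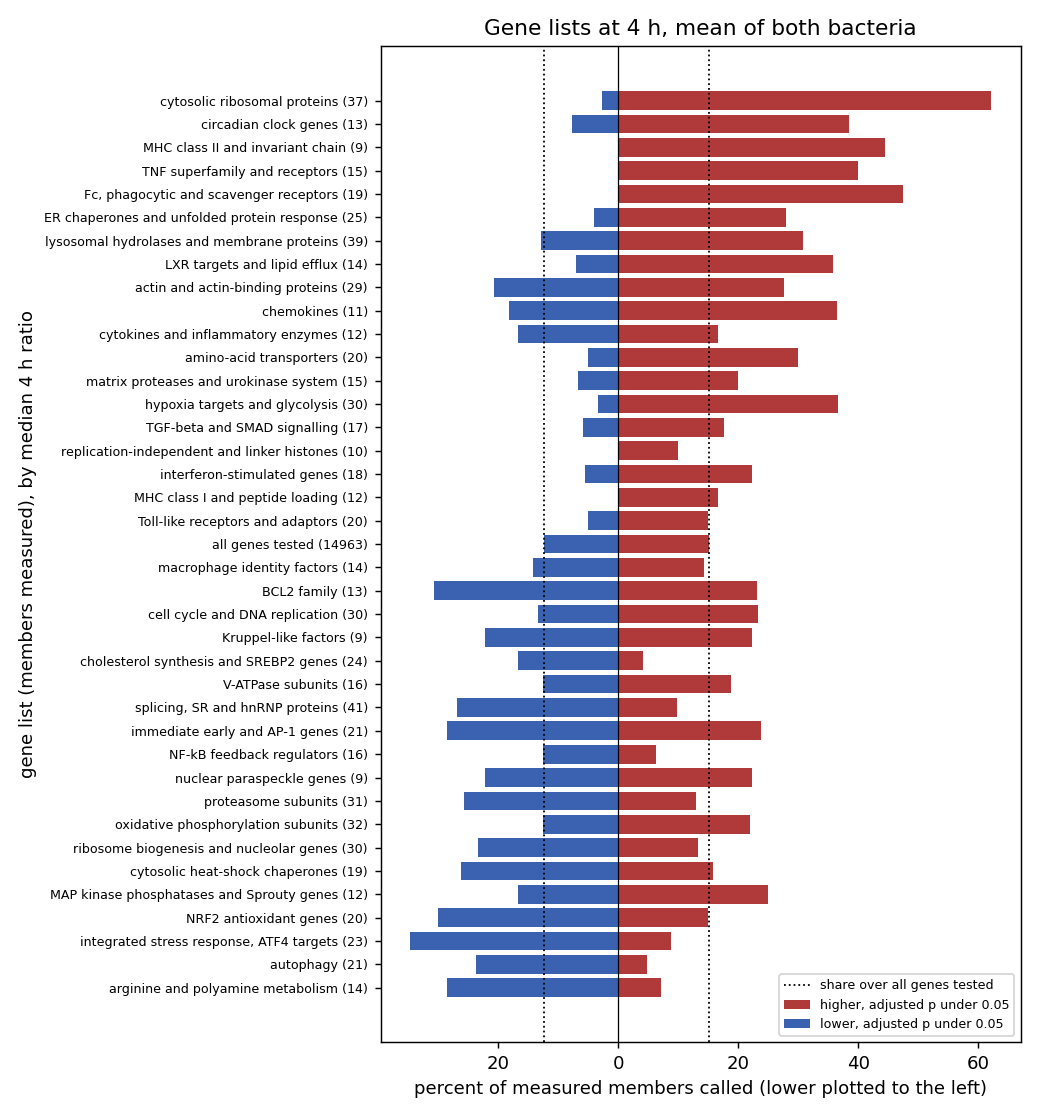
Percent of the measured members of each gene list that were higher (right) or lower (left) in treated cells in the 4 h mean at an adjusted p under 0.05. Dotted lines mark the shares over all genes, 15.1% and 12.3%. The ribosomal list (23 of 37) extends furthest on the right, and the list of ATF4 targets (8 of 23) is among the furthest on the left.

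Taken singly, neither 4 h array has a replicate, so single ratios are described by size with no test. With L. acidophilus, 13 of 14129 genes were at least 2-fold higher (0.092%) and 7 lower (0.0495%). With B. clausii, 16 of 13116 were higher (0.122%) and 27 lower (0.206%). Among genes well above background in both channels of both arrays, the 6 with the widest gap towards a lower B. clausii ratio were Brd8, Them4, Rock1 and, described above, Sltm, Ccar1 and Ppig. Brd8, a bromodomain subunit of the NuA4 acetyltransferase complex, was at 0.13 with L. acidophilus and -2.07 with B. clausii. Its second probe showed -0.03 and 0.25. Rock1, a kinase of the actin cytoskeleton, had -0.24 and -1.24 (its other probes -0.42 and -0.79, and -0.25 and -0.48), and the thioesterase gene Them4 had 0.90 and -0.30. In the other direction H4c6, a histone gene, had -0.51 and 0.82, Disp3 -0.96 and 0.07, Ndufa6, a subunit of respiratory complex I, -0.32 and 0.56, the ammonia transporter gene Rhcg -0.61 and 0.26, and Piezo1, a mechanosensitive channel, 0.30 and 1.14. The histone variant gene Macroh2a1 had -0.37 and 0.52, but its other probes had -0.35 and -0.52, and -0.07 and -0.12. Of the genes well above background in the untreated channel only, Patj, a polarity protein, had a measured ratio of -1.01 with L. acidophilus and Rspo2, a Wnt agonist, of -1.16 with B. clausii. Their treated signals were not well above background, so these ratios are approximate.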

How the data were processed

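Total RNA of RAW264.7 cells was measured on 2-colour Agilent mouse arrays. Per the file headers, the deposited intensity values give each spot's mean foreground and median local background in both channels, and the processed intensities were background-subtracted and dye-normalized by Feature Extraction (version 10.7.3.1 per the file headers, 10.5.1.1 per the submitters' processing notes). The deposited log10 ratios are those of red over green processed signal, per the file headers, and rounded copies of them make up the series matrix (r of 0.999999 with the array files). The deposited flags are 0 or 1 per spot, per the file headers.

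From the foreground and background, background was corrected by normexp (offset 50), which pulls ratios of dim probes towards 0, and loess normalization within arrays gave the log2 ratios (limma 3.58.1, statmod 1.5.0, data.table (1.17.8), R 4.3.3). Where the scanner software marked a local background as an outlier and it exceeded 3 times its array's median, the median took its place and the spot was left out. Spots left out came to 0.473% to 0.890% per array. A probe was kept if 2 arrays or more showed it well above background in 1 channel or both (21629 probes). Names came from RefSeq tables of GRCm38.p6 (27668 of 41174 probes by accession, 85 by another accession, 5533 by symbol, 460 by synonym, 7428 not named), and the brightest probe stood for a gene. Signals quoted are the normalized channel intensities.

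Time and bacterium were fitted to all 8 arrays in limma (3 residual degrees of freedom, prior 5.78, prior SD 0.0938), with the 4 h coefficient against 0 and 4 h minus the mean of the other times as contrasts and Benjamini-Hochberg adjustment over 14963 genes. Values after ± are standard errors. In fits without 1 of the 4 h arrays, the array left is taken to vary like those of the other times. Data of 14964 genes were simulated with independent normal noise at each gene's residual SD, and with no dye, slide or position effect. The 4 h contrast recovered 76% of 100 genes changed by 0.5 log2 and 99% of 100 changed by 1 log2. Of its calls 3.31% were false. For the difference these were 61% and 93%, with 1.91% false. The false shares hold for such data only, and that of the calls reported above was not estimated.

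Named, among genes with a usable symbol and a value on all 8 arrays, were the 12 called genes with the largest 4 h mean and the same sign on both 4 h arrays and the 8 with the largest difference in each direction, the widest gaps and single-channel genes of the 4 h arrays, and up to 5 called members per list. The genes, lists and contrasts were chosen with earlier results of these data known. For arrays, their number limits the precision. Tried as alternatives were offset 0, the processed signals, the series matrix, no background correction, the background as deposited, median centring, scaling between arrays, other filters on dim probes, the mean over probes, no bacterium term, a trended robust prior, a 3-fold limit, and leaving out each array or time.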

Additional observations from a re-analysis of the deposited data

Results flagged for a closer look

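In 209 genes the 4 h ratio differed from the mean of the other times by the limma contrast, and the 16 with the largest differences are listed with their log2 difference. Above the other times were Nr1d2 (0.92), Fnip2 (0.88), Phf13 (0.83), Enc1 (0.74), Tnfrsf1b (0.72), Zfp958 (0.71), Abca1 (0.69) and Zxdc (0.67). Below them were Cxcl2 (-1.69), Klf2 (-1.5), Ccl4 (-1.36), Chac1 (-1.15), Trib1 (-1.12), Banp (-1.07), Maff (-0.88) and Adm (-0.83). Of these 16, Nr1d2 and Ccl4 passed without either 4 h array. The position on the slide goes with the time, and its part in these differences cannot be told apart from that of time.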

How the results depend on the processing

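Against 4110 calls in the 4 h mean, a normexp offset of 0 gave 2673 calls, the background as deposited 1791 and a fit with no bacterium term 2574, and leaving out 1 array gave 405 to 4874. Against 209 calls for the difference of 4 h from the other times there were 0 with the processed signals and 0 with the series matrix in limma (2086 and 2090 genes at an unadjusted p under 0.05), 1 with an offset of 0, 2 with the background as deposited, 102 with no filter on dim probes, 329 with only probes detected in both channels on every array, 69 with no bacterium term and 398 with ratios scaled between arrays. Leaving out 1 array gave 8 to 265, and leaving out both arrays of 1 h 19, of 2 h 39 and of 6 h 1206. With L. acidophilus, 20 genes were past 2-fold at 4 h; the processed signals gave 283, the series matrix 281, an offset of 0 66 and a 3-fold limit 0. With B. clausii there were 43, and under the same settings 355, 355, 113 and 2, with 78 under median centring and 18 in the mean over probes. The causes were not tested.

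Of 126 named gene values, none turned its direction in any alternative. Past the threshold no longer were 72 without the L. acidophilus 4 h array, 69 without that of B. clausii, 49 with the processed signals, 41 with an offset of 0, 23 with median centring and 8 in the mean over probes. Each ratio sets treated against untreated RNA of the same array. No further paired analysis was possible because the labels give no replicate numbers to pair. The bacterium term of the fit, whose removal is given above, is the only block. Dim probes set the limit of detection.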
